A study of Mus musculus with 24 samples.

Results

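The cytosolic heat shock genes described here are 8 chaperone and co-chaperone genes, Hsph1, Bag3, Hspa1a, Hspa1b, Hspa8, Hsp90aa1, Dnajb1 and Hspb1, measured on arrays of mouse lung. They were taken by symbol: a probe set counted for a member when its platform annotation named that symbol and no other. The list itself was chosen with earlier results of these data known. Counts among the 8 set beside shares of all genes are therefore descriptions, not independent tests. All 8 were measured, with 18 probe sets between them, and they are 8 of the 12393 genes tested. Each gene was followed through its brightest probe set, the one with the highest mean log2 intensity over all arrays, and the others served as a check. Values and overlaps given for a gene are those of its brightest probe set unless another is named. The lungs came from female BALB/C mice aged 8 to 10 weeks, in 8 groups of 3 mice with 1 array each. Every mouse received intranasal instillations on days 0 and 13, and the lungs were taken 18 h after the last one. In the groups named CDEP+OVA, NDEP+OVA and ADEP+OVA, the dose was 150 ug of C-DEP, N-DEP or A-DEP, 3 chemically distinct diesel exhaust particle samples, together with 20 ug of the allergen ovalbumin. The CDEP, NDEP and ADEP groups received the same particles without ovalbumin, the OVA group ovalbumin without particles, and the Saline group saline. The ovalbumin groups are labelled as sensitized and the others as not. The labels name no genetic change, so all groups share the inbred strain, sex and age range.

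Cytosolic chaperones bind unfolded stretches of other proteins, keep them from clumping and help them fold. HSP70 proteins (Hspa1a, Hspa1b, Hspa8) work in cycles of ATP hydrolysis that J-domain proteins such as Dnajb1 start and that nucleotide exchange factors such as Hsph1 and Bag3 reset, while HSP90 (Hsp90aa1) acts later on client proteins that include many kinases and steroid receptors. Heat, oxidants, metals and other agents that damage proteins release heat shock factor 1 from chaperones, and the factor then binds heat shock elements, repeats of the unit nGAAn in alternating orientation, near the start of these genes.

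The sequences just before the start sites are shown for 5 members, because heat shock elements in this stretch are the feature that heat shock genes are known to share. They are the 150 bases before each start in RefSeq on GRCm38.p6, read 5′ to 3′ on the gene's own strand, with capitals where 2 units meet, as GAA and TTC in either order with any 2 bases between them. Both motifs read the same on either strand, and overlapping matches were allowed.
Hsph1, chr5:149636337-149636486, minus strand: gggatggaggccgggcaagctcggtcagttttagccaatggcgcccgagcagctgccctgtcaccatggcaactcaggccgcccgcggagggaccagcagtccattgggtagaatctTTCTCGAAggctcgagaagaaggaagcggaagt
Hspa1a, chr17:34972157-34972306, minus strand: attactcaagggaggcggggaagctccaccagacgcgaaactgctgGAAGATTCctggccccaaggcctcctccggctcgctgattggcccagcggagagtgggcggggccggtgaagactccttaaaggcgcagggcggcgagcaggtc
Hspa1b, chr17:34959239-34959388, minus strand: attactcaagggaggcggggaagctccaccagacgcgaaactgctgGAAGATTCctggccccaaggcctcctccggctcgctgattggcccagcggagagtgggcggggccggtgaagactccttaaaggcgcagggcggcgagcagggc
Hspb1, chr5:135887769-135887918, plus strand: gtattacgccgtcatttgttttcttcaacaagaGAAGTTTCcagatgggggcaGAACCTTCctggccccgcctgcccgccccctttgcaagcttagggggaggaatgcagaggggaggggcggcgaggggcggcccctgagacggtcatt
Bag3, chr7:128523433-128523582, plus strand: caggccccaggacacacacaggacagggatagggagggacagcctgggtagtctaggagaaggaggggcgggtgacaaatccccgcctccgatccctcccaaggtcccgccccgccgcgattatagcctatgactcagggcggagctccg

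RefSeq promoters were matched for 6 of the 8 members. A match of 2 units lay in these 150 bases in 4 of the 6 (Hsph1, Hspa1a, Hspa1b and Hspb1), and in 7.32% of the 9887 measured genes with a promoter. A gene counted when any of its promoters held one. Hspb1 had 2 matches. Bag3 and Dnajb1 had none here, and Bag3 had the letters GAAGTTTC 43 bases after its start. A run of 3 alternating units, GAA, TTC and GAA or TTC, GAA and TTC with any 2 bases at each join, was in none of the 6 within these 150 bases. Over the whole window, 250 bases before to 50 after the start, Hsph1 alone among the 6 had one, TTCTGGAAAGTTC, beginning 37 bases after the start, against 0.577% of the measured genes with a promoter. The sequences of Hspa1a and Hspa1b differed at 1 of 150 bases (T-2G, Hspa1a first, counted back from the start). These matches describe letters and were not tested for binding.

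All 24 arrays had similar array medians, between 72.2 and 75.5 intensity units. The labelled tissue was borne out by its markers: 6 lung epithelium genes, among them surfactant protein genes, had a high mean log2 intensity on every array. That mean was lowest on replicate 1 of the Saline group (11.72) and replicate 1 of the ADEP+OVA group (12.03), and these were also the arrays with the lowest summed level of the heat shock genes. Several medians below are also given without one of these arrays. Whole-lung RNA cannot tell a change in the number of cells of a type from a change in RNA per cell.

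CDEP+OVA lungs had the highest mean of all 8 groups for all 8 heat shock genes, and for all 18 of their probe sets. The 18 probe sets are repeat readings of the 8 genes. The share of all genes with their highest mean in CDEP+OVA lungs was not worked out. Put on a common scale, as the mean over the 8 genes of each gene's z score across arrays, the 3 CDEP+OVA lungs stood at 1.06 to 2.25, and no other array exceeded 0.79. Replicate 3 of CDEP+OVA ranked among the 3 highest arrays for all 8 genes, replicate 2 for 5 and replicate 1 for 3. The mean score was 1.52 in CDEP+OVA, 0.38 in NDEP+OVA, -0.45 in ADEP+OVA and -0.37 in OVA lungs, and 0.05 in CDEP, -0.79 in NDEP, 0.08 in ADEP and -0.42 in Saline lungs. NDEP lungs were lowest, also in the group means of Bag3, Hspa1a, Hspa1b, Dnajb1 and Hspb1. Second place went to NDEP+OVA for Hsph1, Bag3, Hspa1a, Hspa1b and Dnajb1, to CDEP for Hspa8 and Hspb1, and to ADEP for Hsp90aa1. Neighbouring groups in this order overlapped for every gene but 1: each CDEP+OVA array was above each NDEP+OVA array for Hsph1. In a moderated F test of limma over all 8 groups, with Benjamini-Hochberg adjustment over the 12393 genes and a threshold of 0.05, 2 of the 8 genes varied between groups, against 7.61% of all genes. These were Bag3 (adjusted p = 0.000703) and Hspa1b (adjusted p = 0.0198); the other 6 had adjusted p between 0.0656 for Hspa1a and 0.291 for Hspb1. The share of a gene's variance that lay between groups was 82.0% for Bag3 and 38.3% for Hspb1, the extremes of the 8. Means of 3 arrays also differ through the spread between mice, so such a share is not by itself a group effect. The count of 2 was 5 without ADEP+OVA replicate 1 and 4 without ADEP+OVA replicate 3, and it was 1, Bag3, without CDEP+OVA replicate 2, CDEP+OVA replicate 3 or NDEP replicate 3. For fits changed in such ways, here and below, the share of all genes called was not worked out. Those counts cannot show how the 8 compare with other genes.

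**Figure D1:**
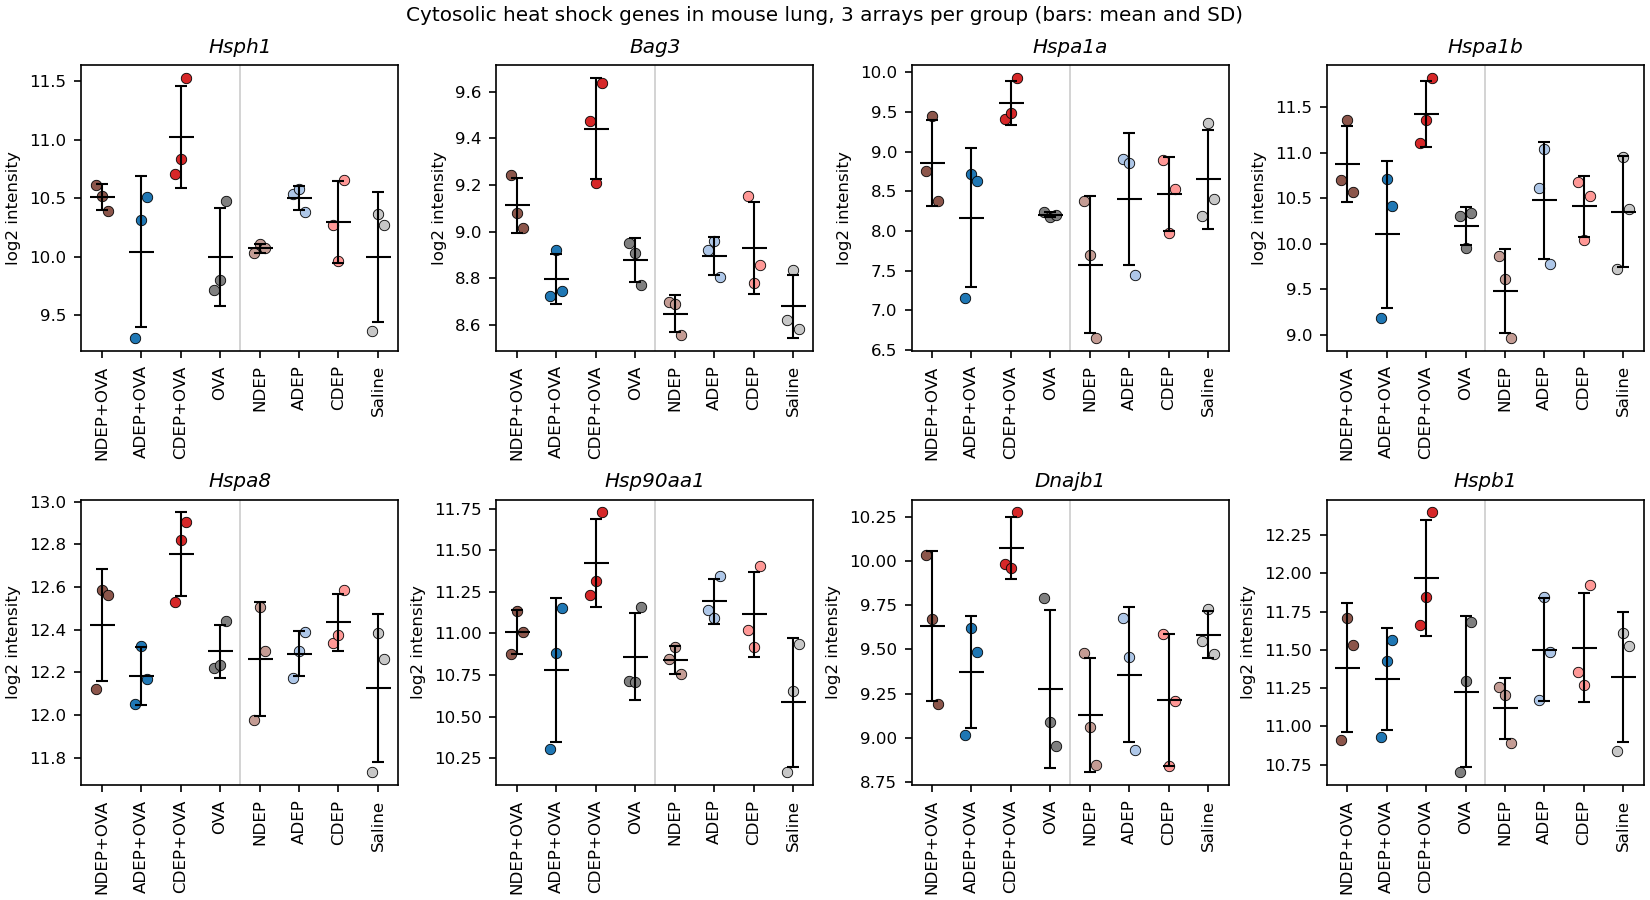
Log2 intensity of the 8 heat shock genes on each of the 24 arrays, 1 panel a gene, with 1 point per mouse and each group's mean and SD (n = 3). CDEP+OVA holds the highest group mean in every panel, and Hspa1a and Hspa1b spread most among mice of the same group.

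Hsph1 encodes HSP110, a large relative of HSP70 that exchanges its nucleotide. Its log2 intensity was 10.71, 10.84 and 11.52 in CDEP+OVA, 10.62, 10.52 and 10.39 in NDEP+OVA, 9.31, 10.31 and 10.51 in ADEP+OVA and 9.72, 9.80 and 10.48 in OVA lungs. It was 10.27, 9.96 and 10.66 in CDEP, 10.03, 10.11 and 10.07 in NDEP, 10.54, 10.58 and 10.38 in ADEP and 9.36, 10.36 and 10.27 in Saline lungs. Every CDEP+OVA lung was above every lung of the other 7 groups, and the lowest values were replicate 1 of ADEP+OVA and replicate 1 of Saline. On the second Hsph1 probe set CDEP+OVA (lowest 8.59) overlapped CDEP (highest 8.85) and ADEP (highest 8.66). Hsph1 rose by 1.03 ± 0.27 on the log2 scale (SE, 3 arrays a group) in CDEP+OVA relative to OVA, a 2.04-fold difference (adjusted p = 0.0259). Against CDEP the difference was 0.73 ± 0.27 (adjusted p = 0.121) and against ADEP+OVA 0.98 ± 0.27 (adjusted p = 0.0659), both short of the threshold.

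Bag3, which couples HSP70 to small heat shock proteins and to the autophagy of damaged proteins, had the largest share of variance between groups of the 8. It had 9.48, 9.21 and 9.64 in CDEP+OVA, 9.24, 9.08 and 9.01 in NDEP+OVA, 8.72, 8.92 and 8.74 in ADEP+OVA and 8.95, 8.91 and 8.77 in OVA lungs (log2 intensity). Without ovalbumin it had 9.15, 8.78 and 8.86 in CDEP, 8.70, 8.69 and 8.56 in NDEP, 8.92, 8.96 and 8.80 in ADEP and 8.62, 8.83 and 8.58 in Saline lungs. All CDEP+OVA lungs were above all lungs of the CDEP, ADEP+OVA and OVA groups, while replicate 2 of CDEP+OVA lay below replicate 1 of NDEP+OVA. Bag3 rose in CDEP+OVA against OVA by 0.56 ± 0.11 (SE; adjusted p = 0.00333), against CDEP by 0.51 ± 0.11 (adjusted p = 0.0154) and against ADEP+OVA by 0.65 ± 0.11 (adjusted p = 0.00612). It was also the single member called for ovalbumin averaged over the 4 particle settings, with a rise of 0.27 ± 0.06 (adjusted p = 0.00855; 0.912% of all genes rose in that comparison). The 4 ovalbumin differences behind that mean were 0.51 with C-DEP, 0.47 with N-DEP, -0.10 with A-DEP and 0.20 with no particle. Without ADEP+OVA replicate 1, a second member was called in that averaged comparison. Bag3 is in 1 probe set only, so no second one bears on it.

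Hspa1a and Hspa1b, neighbouring genes for the stress-inducible HSP70, are near-identical copies whose probes can bind either RNA, so their values cannot be told apart with certainty. The Hspa1b probe set gave 11.10, 11.36 and 11.82 in CDEP+OVA, 10.70, 11.36 and 10.57 in NDEP+OVA, 9.19, 10.71 and 10.41 in ADEP+OVA and 10.30, 9.96 and 10.33 in OVA lungs. It gave 10.68, 10.04 and 10.52 in CDEP, 9.86, 9.62 and 8.97 in NDEP, 10.61, 11.04 and 9.78 in ADEP and 9.72, 10.95 and 10.38 in Saline lungs. CDEP+OVA lay above OVA without overlap, and NDEP lungs held the lowest group mean. Hspa1b rose 2.35-fold in CDEP+OVA relative to OVA (1.23 ± 0.35 log2, SE; adjusted p = 0.0406).

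For Hspa1a the arrays read 9.42, 9.49 and 9.93 in CDEP+OVA, 8.75, 9.45 and 8.39 in NDEP+OVA, 7.16, 8.72 and 8.63 in ADEP+OVA and 8.23, 8.18 and 8.21 in OVA lungs. They read 8.90, 7.98 and 8.53 in CDEP, 8.38, 7.70 and 6.66 in NDEP, 8.91, 8.86 and 7.44 in ADEP and 8.20, 9.36 and 8.40 in Saline lungs. Mice given the same treatment differed by up to 1.72 (log2), the range of the NDEP lungs. The difference between CDEP+OVA and OVA was 1.40 ± 0.42, the largest of the 8 in size, with adjusted p = 0.0575, short of the threshold.

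Hspa8 encodes HSC70, the HSP70 made in unstressed cells. Its log2 intensity was 12.53, 12.82 and 12.91 in CDEP+OVA, 12.12, 12.59 and 12.56 in NDEP+OVA, 12.05, 12.32 and 12.17 in ADEP+OVA and 12.22, 12.24 and 12.44 in OVA lungs. It was 12.34, 12.38 and 12.59 in CDEP, 11.98, 12.51 and 12.30 in NDEP, 12.18, 12.30 and 12.39 in ADEP and 11.73, 12.39 and 12.26 in Saline lungs. The 24 values spanned 1.17 log2 units, the narrowest range after Bag3, and all CDEP+OVA lungs were above all OVA lungs. The difference between CDEP+OVA and OVA was 0.45 ± 0.16 (adjusted p = 0.108). On each of the other Hspa8 probe sets these groups overlapped, and the second had means of 12.17 in CDEP+OVA and 11.95 in OVA lungs. No comparison called Hspa8.

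Dnajb1 (HSP40), the J-domain partner of stress-inducible HSP70, had 9.98, 9.96 and 10.27 in CDEP+OVA, 10.03, 9.67 and 9.19 in NDEP+OVA, 9.02, 9.62 and 9.48 in ADEP+OVA and 9.79, 9.09 and 8.95 in OVA lungs. It had 9.59, 8.84 and 9.21 in CDEP, 9.48, 9.06 and 8.85 in NDEP, 9.68, 9.46 and 8.93 in ADEP and 9.55, 9.73 and 9.47 in Saline lungs. All CDEP+OVA lungs were above all OVA, CDEP and Saline lungs, and replicate 1 of NDEP+OVA reached into their range. Dnajb1 rose in CDEP+OVA relative to CDEP by 0.86 ± 0.23 (SE; adjusted p = 0.0430), and its difference to OVA was 0.79 ± 0.23 (adjusted p = 0.0505). The second Dnajb1 probe set gave 0.21 ± 0.14 against CDEP (adjusted p = 0.387 over all 20380 probe sets with 1 symbol) and passed against OVA (adjusted p = 0.0340), so the pair of probe sets disagree on which of these comparisons is called.

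Hsp90aa1, the inducible HSP90, had 11.23, 11.31 and 11.73 in CDEP+OVA, 10.88, 11.14 and 11.01 in NDEP+OVA and 10.30, 10.88 and 11.15 in ADEP+OVA lungs, against 10.71, 10.71 and 11.16 in OVA lungs. With each particle alone it had 11.02, 10.92 and 11.41 in CDEP, 10.85, 10.92 and 10.75 in NDEP and 11.14, 11.09 and 11.35 in ADEP lungs, against 10.17, 10.65 and 10.94 in Saline lungs. All ADEP arrays were above all Saline arrays, as for Hsph1 and 10.7% of all genes, and replicate 2 of CDEP lay just below replicate 3 of Saline. Of the 8 genes it showed the largest differences between particle alone and saline in the upward direction, 0.61 ± 0.19 for ADEP (adjusted p = 0.107) and 0.53 ± 0.19 for CDEP (adjusted p = 0.117), neither past the threshold. Its difference between CDEP+OVA and OVA was 0.56 ± 0.19 (adjusted p = 0.102).

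Hspb1 (HSP25 in mice), a small heat shock protein that holds unfolded proteins without using ATP, had the smallest share of variance between groups of the 8. It had 11.66, 11.85 and 12.40 in CDEP+OVA, 10.91, 11.71 and 11.53 in NDEP+OVA, 10.93, 11.43 and 11.56 in ADEP+OVA and 10.70, 11.30 and 11.68 in OVA lungs. Values were 11.35, 11.27 and 11.92 in CDEP, 11.25, 11.20 and 10.89 in NDEP, 11.17, 11.84 and 11.48 in ADEP and 10.84, 11.61 and 11.52 in Saline lungs. CDEP+OVA replicate 1 lay below OVA replicate 3, so these groups overlapped. The difference between CDEP+OVA and OVA was 0.74 ± 0.26 (adjusted p = 0.113).

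The comparison of C-DEP plus ovalbumin with ovalbumin alone asks what the particle adds to the allergen. Of the 8 genes, 3 rose (Hsph1, Bag3 and Hspa1b) and none fell, against 3.62% of all genes that rose. The median log2 difference of the 8 was 0.77, against -0.01 for all genes, and the 8 ran from 0.45 for Hspa8 to 1.40 for Hspa1a. On the brightest probe sets, all 3 CDEP+OVA arrays were above all 3 OVA arrays for 7 of the 8, Hspb1 being the exception, and for 12.8% of all genes. These groups overlapped on every other Hspa8 probe set and on the third of Hsp90aa1, and did not overlap on the second of Hspb1. In 2 settings chosen after seeing the data, more were called. With Saline replicate 1 and ADEP+OVA replicate 1 left out, 6 of the 8 were. Neither array is in the compared groups, so the differences stayed the same and only the shared estimate of the spread changed. With each array's lung epithelium mean as a covariate, all 8 were called. How many of all genes were called in these 2 settings was not worked out, so these counts have no share to stand beside. The count was 1 without CDEP+OVA replicate 2, without CDEP+OVA replicate 3 or without OVA replicate 2. Leaving out 1 array of either group left Bag3 called in all 6 fits, Hsph1 only without CDEP+OVA replicate 1 or OVA replicate 3, and Hspa1b in none, with adjusted p of 0.0515 to 0.185. Hsph1 then had adjusted p of 0.0611 without CDEP+OVA replicate 2, 0.142 without replicate 3, 0.101 without OVA replicate 1 and 0.138 without OVA replicate 2.

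Some other cell markers moved between the same groups. In CDEP+OVA relative to OVA, 1.17% of all genes fell. Of 12 cardiac muscle genes, 9 fell and none rose there, with a median of -0.95. Their mean log2 intensity was 7.49 to 7.94 in CDEP+OVA lungs, against 8.46 to 8.70 in OVA lungs. With that mean as a covariate, 1 of the 8 heat shock genes was called, Hsp90aa1, and Bag3 had a difference of 0.35 (adjusted p = 0.223). The median difference of the 8 was 0.88 with the covariate, against 0.77 without it. Of 6 macrophage genes 3 rose, with a list mean of 7.34 to 7.51 in CDEP+OVA lungs, against 6.58 to 6.72 in OVA lungs, and of 6 measured neutrophil genes 2 rose, with 7.19 to 7.83 in CDEP+OVA lungs, against 6.23 to 6.93 in OVA lungs. Of 6 smooth muscle genes 1 fell, with a list mean of 9.10 to 9.22 in CDEP+OVA lungs, against 9.27 to 9.46 in OVA lungs. None of 5 measured fat genes was called, with 4.61 to 5.11 in CDEP+OVA lungs, against 5.22 to 5.82 in OVA lungs. The part of these cells in the heat shock values was not tested. No marker was at 0 on any array, but no intensity in these data is (lowest 5.98), so this cannot show that a cell type was present. The 6 lung epithelium genes had 0 calls, with a mean of 12.17 to 12.30 in CDEP+OVA lungs, against 12.26 to 12.27 in OVA lungs. Endothelial list means also overlapped, at 10.38 to 10.53 in CDEP+OVA lungs, against 10.34 to 10.57 in OVA lungs. So did lymphocyte list means, at 6.18 to 6.56 in CDEP+OVA lungs, against 6.03 to 6.51 in OVA lungs. The Actb 3′ minus 5′ control difference, a sign of RNA quality, was 0.85 to 1.23 in CDEP+OVA lungs, against 0.73 to 0.91 in OVA lungs and 0.64 to 0.69 in CDEP lungs (log2).

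Ovalbumin on top of C-DEP, CDEP+OVA against CDEP, called Bag3 and Dnajb1 upward, 2 of the 8, and 1.92% of all genes upward. The median difference was 0.62, against -0.01 for all genes. The arrays did not overlap for 5 of the 8, against 13.5% of all genes that lay above. On the second probe sets of Hsph1 and Dnajb1, members of these 5, they did overlap. Hspa1b (1.02 ± 0.35, adjusted p = 0.0971), Hspa1a (1.14 ± 0.42, adjusted p = 0.122) and Hsph1 (0.73 ± 0.27) had log2 differences of similar or larger size without passing. Bag3 had adjusted p of 0.105 without CDEP replicate 2, 0.0549 without CDEP replicate 3 and 0.0932 without CDEP+OVA replicate 3. Dnajb1 was called only without CDEP replicate 1 and had adjusted p of 0.0604 to 0.210 in the other 5 fits that left out 1 array of either group. With the RNA quality differences as covariates, 0 of the 8 were called, with 0.47 for Bag3 (adjusted p = 0.218), and 0 with the cardiac muscle mean as one, where the median of the 8 was 0.63. In this comparison 3 of 12 cardiac muscle genes fell, with a mean of 7.49 to 7.94 in CDEP+OVA lungs, against 8.10 to 8.43 in CDEP lungs, and 2 of 6 macrophage genes rose, with 7.34 to 7.51 in CDEP+OVA lungs, against 6.92 to 6.99 in CDEP lungs. The share of all genes that fell is not given here.

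Set against another particle with the same allergen, CDEP+OVA over ADEP+OVA, every heat shock gene was higher on all 3 CDEP+OVA arrays than on all 3 ADEP+OVA arrays, against 9.41% of all genes. This held on the brightest probe sets, and on each of the other Hspa8 probe sets these groups overlapped. Bag3 rose, 1 of the 8, and 0.815% of all genes did. The median difference was 0.68, against -0.03 for all genes. The other 7 ran from 0.57 ± 0.16 for Hspa8 (adjusted p = 0.0657) to 1.44 ± 0.42 for Hspa1a (adjusted p = 0.0816), and Hspa1b came nearest to the threshold at 1.33 ± 0.35 (adjusted p = 0.0539). Replicate 1 of ADEP+OVA was the lowest ADEP+OVA array for all 8 genes. Without that array the count was 1 and the median 0.56, and without ADEP+OVA replicate 2 or without CDEP+OVA replicate 1, 4 of the 8 were called. A second probe set disagreed with the first for 2 members: Hspa1b and Hsp90aa1 passed on it (adjusted p = 0.0290 and 0.0478). Of the cardiac muscle genes 1 of 12 fell, with a mean of 7.49 to 7.94 in CDEP+OVA lungs, against 8.05 to 8.34 in ADEP+OVA lungs, and with that mean as a covariate 4 of the 8 heat shock genes were called. How many of all genes fell there is not given. Bag3 stayed past the threshold when any 1 array of these groups was left out.

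Against NDEP+OVA, the group closest to it, CDEP+OVA was higher in mean for all 8 genes and for 44.0% of all genes. The median of the 8 was 0.48 (all genes -0.02), and limma called none of the 8. At the adjusted threshold 0.00807% of all genes passed upward, and at an unadjusted p under 0.05 there were 4 of the 8 and 7.33% of all genes. Without CDEP+OVA replicate 3 the median was 0.30. Arrays did not overlap for 2 of the 8, Hsph1 and Hsp90aa1, against 4.25% of all genes that lay above. On the third Hsp90aa1 probe set they overlapped. The 95% interval of the difference, not adjusted, was 0.10 to 0.56 for Bag3 and -0.04 to 1.07 for Hsph1. These 3 comparisons share the CDEP+OVA arrays with each other and with the comparison against OVA, so the same 3 lungs enter all of them.

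**Figure D2:**
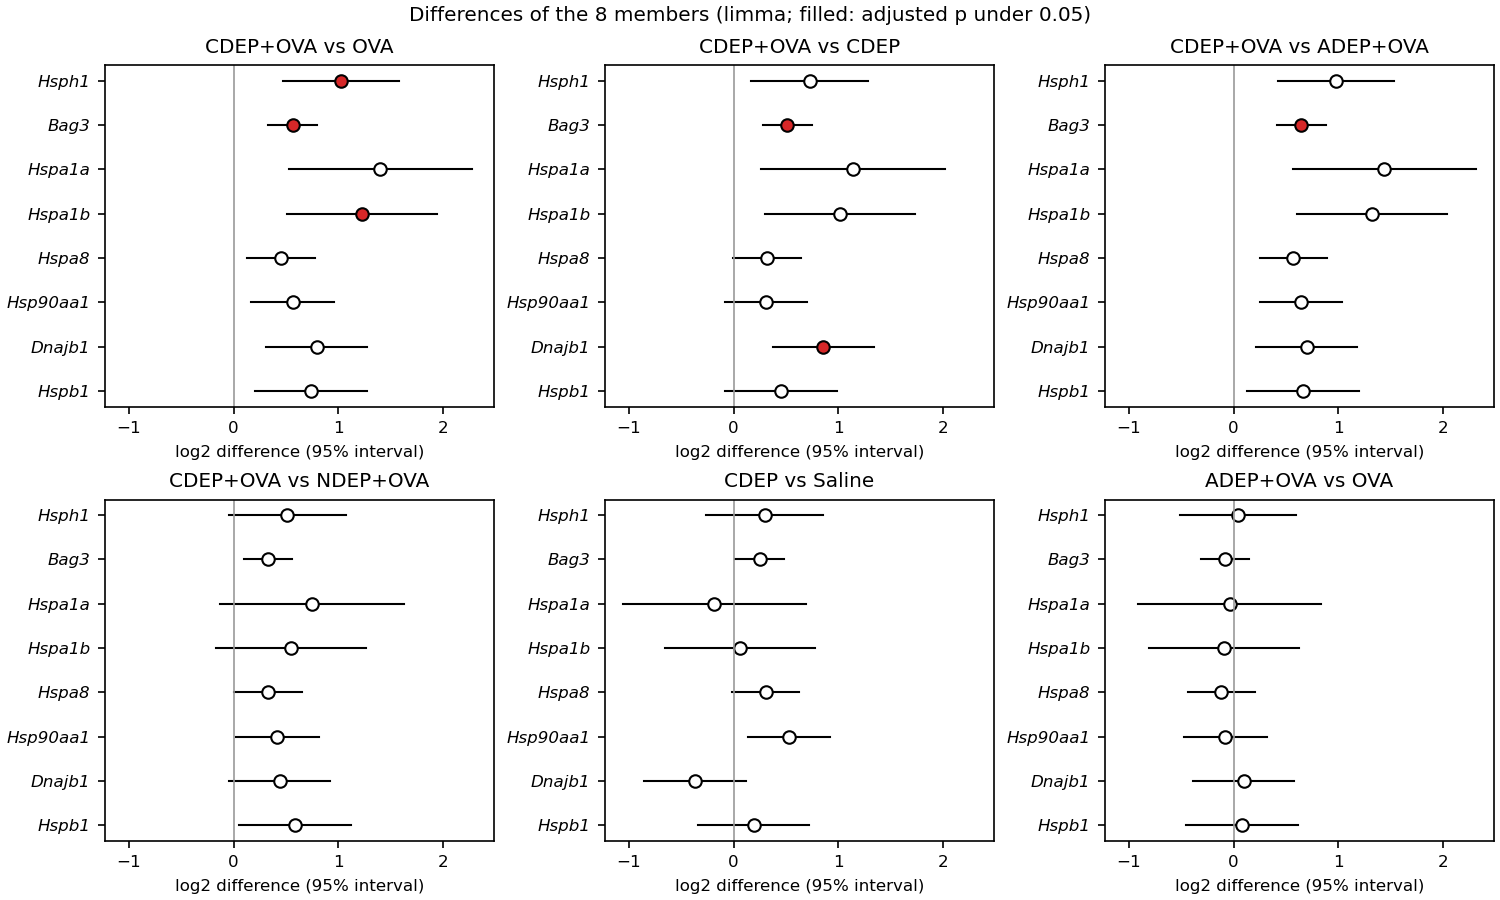
Log2 differences of the 8 heat shock genes with 95% intervals in 6 comparisons, where filled points passed an adjusted p of 0.05. Filled points stand for Hsph1, Bag3 and Hspa1b against OVA, Bag3 and Dnajb1 against CDEP, and Bag3 against ADEP+OVA, and the other panels hold none.

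Whether C-DEP with ovalbumin goes beyond the sum of each alone was asked with an interaction term, the difference between CDEP+OVA and OVA minus that between CDEP and Saline. None of the 8 passed, and 0.258% of all genes passed upward. At an unadjusted p under 0.05 there were 3 of the 8 and 12.7% of all genes. Dnajb1 had 1.16 ± 0.33 (adjusted p = 0.128), Hspa1a 1.59 ± 0.60 and Hspa1b 1.17 ± 0.49 (adjusted p = 0.264 and 0.314). Hsp90aa1 had 0.03 ± 0.27, near 0. Without OVA replicate 1, Dnajb1 was called in this comparison, but its second probe set gave 0.12 ± 0.20 (adjusted p = 0.838 over all probe sets). With second probe sets the median of the 8 was 0.24, and without CDEP+OVA replicate 3 it was 0.41. The corresponding term for N-DEP was 1.73 ± 0.60 for Hspa1a (adjusted p = 0.620), and for A-DEP it was -0.69 ± 0.27 for Hsp90aa1 (adjusted p = 0.380). Neither particle had a called member, and 0.0242% of all genes passed for N-DEP and 0.0242% for A-DEP. At an unadjusted p under 0.05 there were 3 of the 8 for N-DEP, against 6.16% of all genes, and 1 for A-DEP, against 10.4% of all genes. The median of the 8 was 0.64 for C-DEP, 0.40 for N-DEP and -0.25 for A-DEP. Without Saline replicate 1 it was 0.68 for N-DEP and 0.01 for A-DEP, and without ADEP+OVA replicate 1 it was 0.00 for A-DEP.

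Without ovalbumin, no heat shock gene was called for any particle against saline. The adjusted threshold was passed by 4.04% of all genes for C-DEP, 2.7% for N-DEP and 1.65% for A-DEP. For C-DEP, 2 of the 8 had an unadjusted p under 0.05, Hsp90aa1 and Bag3, against 19.7% of all genes. For N-DEP there were also 2, Hspa1a at -1.07 ± 0.42 and Hspa1b at -0.87 ± 0.35 (adjusted p = 0.201 and 0.208), both below saline in mean, against 15.5% of all genes. For A-DEP there was 1, Hsp90aa1, against 15.6% of all genes. Ovalbumin alone against saline called none of the 8 and none of the 12393 genes by limma, and none of the 8 had an unadjusted p under 0.05, against 6.6% of all genes. The median of the 8 against saline was 0.22 for CDEP, -0.12 for NDEP, 0.17 for ADEP and -0.05 for OVA lungs. Without Saline replicate 1 these were -0.04, -0.35, -0.05 and -0.32, and without Saline replicate 2 0.35, -0.01, 0.31 and 0.16. The sign of 3 of the 4 medians thus turned with 1 saline array. The 3 comparisons of one particle with another, without ovalbumin, called none of the 8 either, with 3 at an unadjusted p under 0.05 for CDEP against NDEP (5.92% of all genes), 2 for ADEP against NDEP (4.56%) and 0 for CDEP against ADEP (6.68%). At the adjusted threshold, 0%, 0.00807% and 0% of all genes were called in these, in the same order. CDEP arrays were above NDEP arrays without overlap for 3 of the 8 and 4.03% of all genes, and ADEP arrays were above NDEP arrays for 3 of the 8 and 3.87% of all genes.

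N-DEP and A-DEP with ovalbumin called no member against ovalbumin alone. NDEP+OVA was above OVA in mean for all 8 genes (median 0.29) and for 54.8% of all genes. Of the 8, 0 were called by limma (2.07% of all genes), 1 had an unadjusted p under 0.05 (11.6% of all genes) and 3 were without overlap (9.21% of all genes). ADEP+OVA against OVA had a median of -0.06, 0 called by limma (0.686% of all genes) and 0 at an unadjusted p under 0.05 (11.4% of all genes). Without ADEP+OVA replicate 1 that median was 0.27, so its sign rested on 1 array. Compared directly, ADEP+OVA was below NDEP+OVA in mean for all 8, while 52.0% of all genes were above. Limma called 0 of the 8 (0.0161% of all genes), and 2 of the 8 had an unadjusted p under 0.05 (10.8% of all genes). The median was -0.29, and -0.14 without ADEP+OVA replicate 1, and with 1 array left out the difference of Hsp90aa1 reached 0.01 and that of Hspb1 0.11. Bag3 was lower on every ADEP+OVA array than on every NDEP+OVA array, at -0.32 ± 0.11 (adjusted p = 0.305), as were 6.27% of all genes. Between NDEP+OVA and NDEP, Hspa1b differed by 1.39 ± 0.35 (adjusted p = 0.0970) and Bag3 by 0.47 ± 0.11 (adjusted p = 0.0833). None of the 8 was called there, while 0.274% of all genes were, and 4 had an unadjusted p under 0.05, against 9.64% of all genes. NDEP+OVA arrays lay above NDEP arrays without overlap for 4 of the 8, against 5.16% of all genes. ADEP+OVA against ADEP had a median of -0.21 with 0 called by limma (0.0646% of all genes) and 1 at an unadjusted p under 0.05 (9.95% of all genes). That median was -0.02 without ADEP+OVA replicate 1, -0.36 without ADEP+OVA replicate 2, -0.39 without ADEP+OVA replicate 3 and -0.08 without ADEP replicate 2.

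The wider chaperone network was followed through 10 lists in CDEP+OVA against OVA. Of the 8 subunits of TRiC, the ring-shaped chaperonin that folds actin and tubulin, 5 rose and none fell, with a median of 0.34. Cct8 rose by 0.51 ± 0.12 (adjusted p = 0.0109), Cct5 by 0.42 ± 0.10, Cct7 by 0.46 ± 0.12 and Cct4 by 0.33 ± 0.09 (log2, SE). Among 8 measured HSP90 partners, 2 rose and none fell: Stip1, which bridges HSP70 and HSP90, by 0.81 ± 0.19 (adjusted p = 0.0120) and Chordc1 by 0.71 ± 0.17 (adjusted p = 0.0168). Of 7 other J-domain genes 1 rose, Dnaja1, by 0.64 ± 0.17 (adjusted p = 0.0244). Of 3 mitochondrial chaperones 1 rose, Hspd1 (HSP60), by 0.60 ± 0.17 (adjusted p = 0.0400). Serpinh1 (HSP47), a collagen chaperone of the endoplasmic reticulum and the 1 gene measured of 3 other heat shock factor targets, rose by 0.74 ± 0.15 (adjusted p = 0.00295).

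In the remaining lists, none of 5 other HSP70 and HSP110 genes was called, Hspa4 having the smallest p (0.32 ± 0.13, adjusted p = 0.197), and none of 7 other HSP70 partners was, led by St13 (0.52 ± 0.18, adjusted p = 0.108). The 3 measured genes of the heat shock factor list had a median of -0.10 and none was called, with Hsf4 at -0.12 ± 0.09; Hsf1 was not measured by a probe set of 1 symbol. Of 5 measured small heat shock genes, 1 fell and none rose: Hspb7, a gene of heart and muscle, at -0.68 ± 0.16 (adjusted p = 0.0131), in the comparison in which 9 of 12 cardiac muscle genes fell. Of 16 immediate early genes 3 rose, Egr2 by 0.90 ± 0.11 (adjusted p = 1.69e-05), Atf3 by 0.57 ± 0.14 and Junb by 0.47 ± 0.14, with a list median of 0.08. 3.62% of all genes rose and 1.17% fell.

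Against CDEP, Chordc1 (0.71 ± 0.17), Cct8 (0.44 ± 0.12), Egr2 (0.71 ± 0.11) and Atf3 (0.56 ± 0.14) rose in CDEP+OVA, each the single riser of its list except the last 2, which share one, and Hspb7 and Hspb2 fell (-0.73 ± 0.16 and -0.39 ± 0.09). Against ADEP+OVA, Chordc1 (0.81 ± 0.17), Dnaja1 (0.72 ± 0.17), Cct8 (0.48 ± 0.12) and Bag1 (0.42 ± 0.11), an HSP70 exchange factor, rose and Hspb2 fell (-0.42 ± 0.09). The cardiac muscle mean was also lower in CDEP+OVA (7.75) than in CDEP (8.28) and ADEP+OVA lungs (8.23). The part of muscle in the falls of Hspb7 and Hspb2 was not tested. For C-DEP against saline, Cct7 rose by 0.49 ± 0.12 (adjusted p = 0.0249). In ADEP+OVA against OVA, Serpinh1 rose by 0.73 ± 0.15 (adjusted p = 0.0123), where none of the 8 heat shock genes was called.

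**Figure D3:**
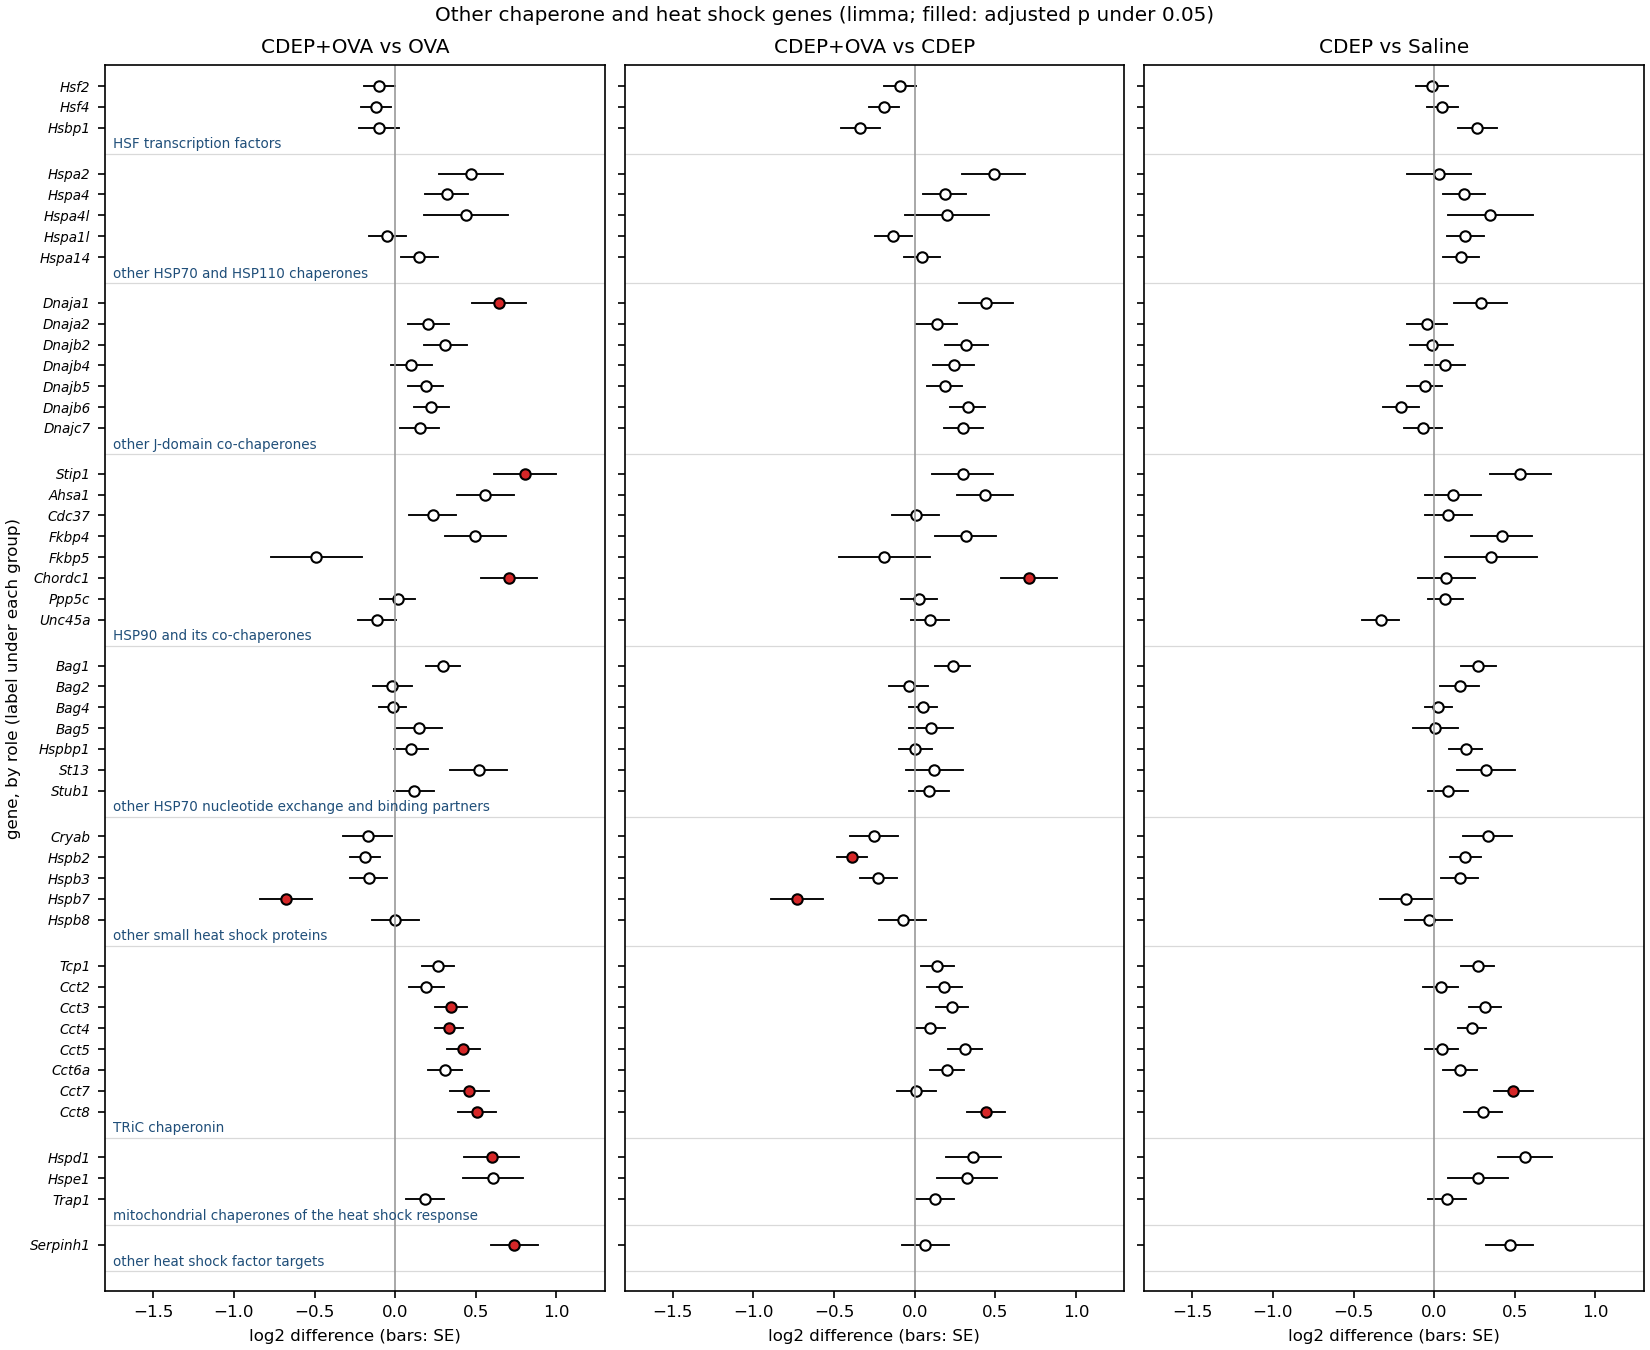
Log2 differences, with bars of 1 SE, of the measured genes of 9 chaperone and heat shock lists outside the 8 members (the immediate early genes are left out) in CDEP+OVA against OVA, CDEP+OVA against CDEP and CDEP against Saline, filled where the adjusted p passed 0.05. In the first panel 10 of the filled genes lie right of 0, 5 of them TRiC subunits, and Hspb7 lies left of it.

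Mice of the same group differed in their heat shock levels, and the members moved together unevenly in doing so. After each group's mean was subtracted, the Pearson correlation over 24 arrays was 0.93 between Hspa1a and Hspa1b, whose probes can share targets, and 0.90 between Hsph1 and Hsp90aa1. It was 0.78 between Hsp90aa1 and Hspb1, 0.73 between Hspa1a and Dnajb1 and 0.73 between Bag3 and Dnajb1. It was near or below 0 between Bag3 and Hspa8 (-0.09), Bag3 and Hsp90aa1 (0.03), Dnajb1 and Hspb1 (-0.12) and Dnajb1 and Hspa8 (-0.27). Hspa1b had 0.71 with Hsph1 and 0.64 with Dnajb1, and Hspa1a had 0.55 with Hsph1 and 0.57 with Bag3. The values on an array share its RNA and its normalization, so these are descriptions of the 24 arrays. Saline replicate 1 and ADEP+OVA replicate 1, the arrays with the lowest summed level, were not left out of them. By rank within groups, Spearman's rho was 0.94 between Hspa1a and Hspa1b and 0.83 between Hsph1 and Hsp90aa1.

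**Figure D4:**
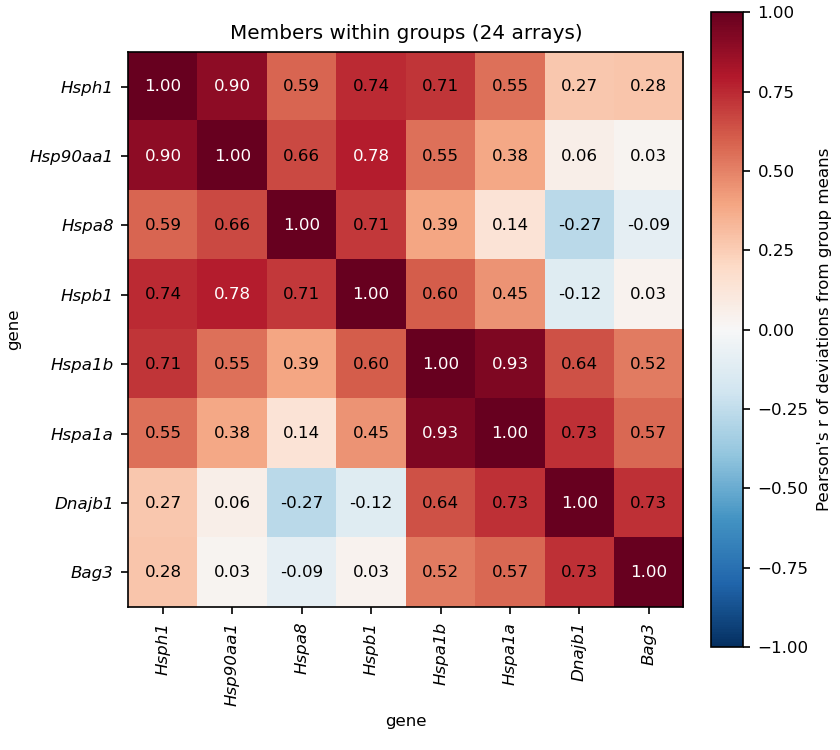
Pearson correlations between the 8 heat shock genes over 24 arrays after subtraction of each group's mean, with the value in each cell. Hspa1a with Hspa1b and Hsph1 with Hsp90aa1 reach 0.93 and 0.90, and Dnajb1 with Hspa8 falls to -0.27.

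The genes outside the 8 whose levels were most like their mean z score over the 24 arrays were Dnaja1, Chordc1, Ahsa2, Cacybp and Trip10. Pearson's r was 0.96 for Dnaja1 (Spearman 0.95), a J-domain partner of HSP70, 0.95 for Chordc1 (Spearman 0.89) and 0.95 for Ahsa2 (Spearman 0.85), a relative of the HSP90 activator Ahsa1. It was 0.91 for Cacybp and 0.83 for Trip10. Without the 2 arrays farthest from the median score, these 5 stood between 0.81 and 0.93. After subtraction of group means, r was 0.91 for Dnaja1 and 0.52 for Trip10, so Dnaja1 followed the 8 among mice of the same group too. Taken singly, Hsph1 was most like Hsp90aa1, Hspe1 and Ahsa2 (r = 0.90, 0.90 and 0.89). Bag3 differed: its nearest were Chil4, Chordc1 and Scin (r = 0.84, 0.84 and 0.83), and for Chil4, a chitinase-like gene of allergic lungs, Spearman's rho was 0.57. Hspb1 was nearest to Ahsa1, Ahsa2 and Stip1 (r = 0.87, 0.85 and 0.82).

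The mean z score of the 8 was set beside other measures of the same arrays. With the lung epithelium mean, Pearson's r was 0.33 over 24 arrays and 0.67 after subtraction of group means, and -0.18 over all arrays without the 2 farthest from the median of that mean. Those were Saline replicate 1 and ADEP+OVA replicate 1, so the relation over all arrays rested on them. With the cardiac muscle mean it was -0.44 over 24 arrays and 0.06 within groups. With the smooth muscle mean it was -0.49 and -0.16 within groups, with the macrophage mean 0.43 and 0.04, and with the lymphocyte mean 0.42 and 0.38. With the endothelial mean it was -0.31 and -0.58 within groups, and with the mean of the immediate early genes 0.15 and -0.48 within groups.

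**Figure D5:**
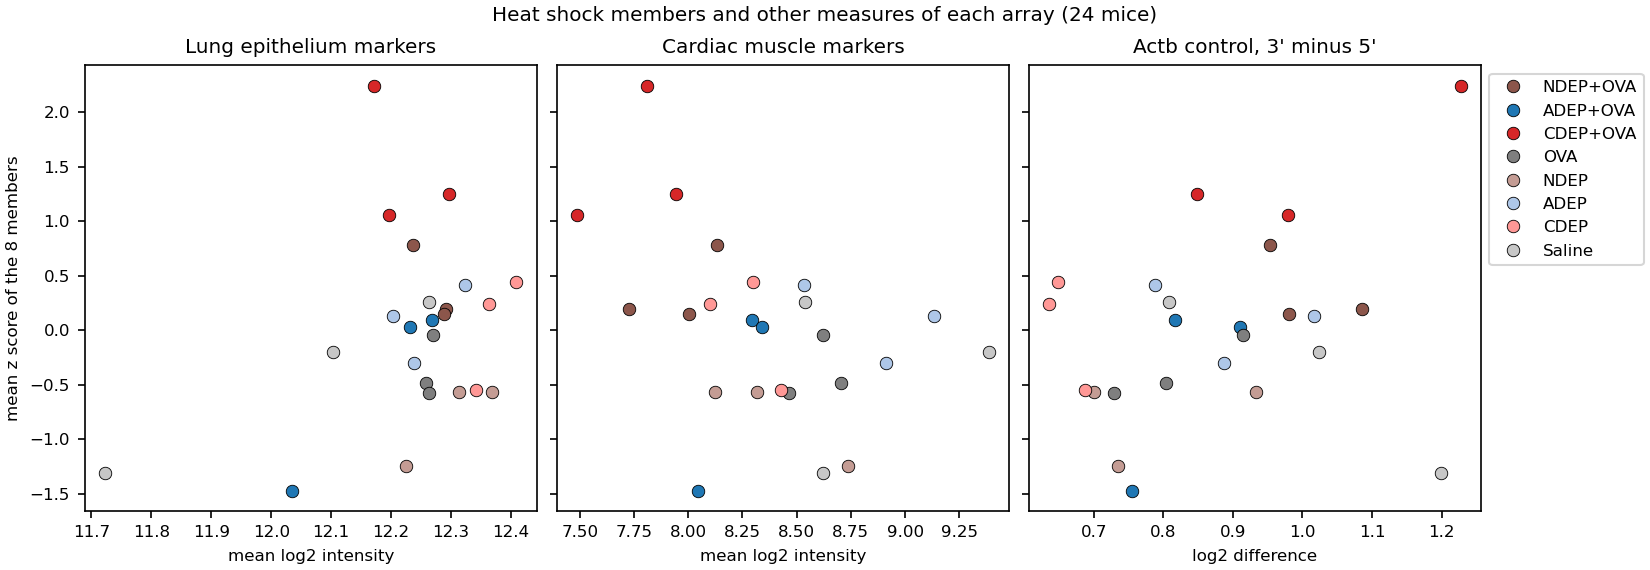
Mean z score of the 8 heat shock genes against other measures of each of the 24 arrays, lung epithelium, cardiac muscle (mean log2 intensity) and the Actb 3′ minus 5′ control (log2 difference), 1 point a mouse, coloured by group. The CDEP+OVA lungs hold the 3 highest scores and 3 of the 4 lowest cardiac muscle means, and Saline replicate 1 and ADEP+OVA replicate 1 combine low scores with the lowest lung epithelium means.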

How the data were processed

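The 24 lung RNA samples were hybridized to Affymetrix arrays of 1 colour, 1 mouse each. The deposited table holds probe set intensities that the authors computed with RMA, per the submitters' processing notes. The RMA version is not given in the sources used here. The values are on a linear scale (5.98 to 18196), so log2 was taken without further normalization. Of 22690 probe sets, 64 are controls, 20380 carry 1 gene symbol, 691 several and 1555 none in the platform annotation. The brightest probe set of each symbol gave 12393 genes, with no filter on dim values, and the brightest probe set of every member was above the array's 25th percentile on all arrays. One limma model (version 3.58.1, R 4.3.3; summaries in Python 3.11.15) with 8 group means gave 20 comparisons and an F test, two-sided, adjusted by Benjamini-Hochberg over all genes in each. SE is the fit's standard error and the intervals cover 95%. The number of arrays limits the precision. The tests set each difference against the spread between mice within groups, estimated over all 8 groups together and moderated across genes. The fit was tested on simulated data.

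Members, lists and tests were chosen with earlier results of these data known. Genes named from a list are those past the threshold in that comparison, at most 4 by smallest p, or the 1 with the smallest p where none passed, and the genes most like the 8 were taken by Pearson correlation. Replicate numbers were not treated as pairs of mice. Deviations of same-numbered arrays from their group means correlated between -0.32 and 0.35, and in 1 of 28 group pairs, OVA and Saline, all 3 exceeded 0.1. Such correlations over all genes cannot exclude a batch shared by replicate numbers. A fit with the replicate number as a block changed several member counts, as given below, while OVA against Saline still called none of the 8. The most similar arrays correlated at 0.996, and none were identical. Alternatives covered the choice of probe set, normalization, dim filter, variance model, arrays in the fit, covariates and arrays left out.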

Additional observations from a re-analysis of the deposited data

How the results depend on the processing

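Every one of the 8 genes kept a positive difference in all 19 alternatives for CDEP+OVA against OVA, CDEP, ADEP+OVA and NDEP+OVA. No called difference changed sign under the alternatives run. Calls were less stable. The share of all genes called under the alternatives, here and below, was not worked out, so the counts describe the 8 genes alone. For CDEP+OVA against OVA, 3 of the 8 genes were called. The count was 6 with array weights, 1 with a trended robust variance and 5 with the compared groups alone in the fit. With the cardiac muscle mean as a covariate it was 1. With 1 array left out, Bag3 was called in all 6 fits, Hsph1 in 2 and Dnajb1 in 1, and no other member in any. For CDEP+OVA against CDEP, 2 were called; 1 was with the second probe set of each member, 1 after another quantile normalization, 1 with a trended robust variance, 4 with the compared groups alone, 0 with the cardiac covariate, 0 with the RNA quality covariates, and 0 to 2 with 1 array left out. For CDEP+OVA against ADEP+OVA, 1 was called; 3 were with every probe set tested, 3 with the second probe sets, 0 with the compared groups alone, 4 with the cardiac covariate, 2 with the RNA quality covariates, and 1 to 4 with 1 array left out. For ovalbumin averaged over particles, 1 was called, 2 with array weights, 0 with the cardiac covariate, and 1 to 2 with 1 array left out. For the F test over 8 groups, 2 were called, 4 with every probe set tested, 4 with second probe sets, 1 with a trended robust variance, 1 with the cardiac covariate, and 1 to 5 with 1 array left out. CDEP against Saline called 1 (Bag3) with array weights. The C-DEP by ovalbumin interaction called 0 to 1 with 1 array left out. The causes were not tested.

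The replicate number used as a replicate block called 7 for CDEP+OVA against OVA, 5 for CDEP+OVA against ADEP+OVA, 5 in the F test, and 1, Hsp90aa1, for ADEP against Saline and for CDEP against Saline; every sample correlated best with its own number in 2 of 28 group pairs. 2 alternatives were chosen after seeing the data. Without Saline replicate 1 and ADEP+OVA replicate 1, counts were 6 for CDEP+OVA against OVA, 4 for CDEP+OVA against CDEP, 4 in the F test and 1 (Hspa1b) for NDEP+OVA against NDEP. With the lung epithelium mean as a covariate they were 8, 4 and 4 for these first 3, 4 for CDEP+OVA against ADEP+OVA, and 1 (Hspa1b) for NDEP against Saline, NDEP+OVA against NDEP and the interactions of N-DEP and C-DEP with ovalbumin. Of the alternatives for single called genes, 113 kept the call and 38 lost it, and 13 of those kept were in settings chosen after seeing the data. Most kept calls were those of Bag3. It kept them in 18 of 19 against OVA, 14 of 19 against CDEP, 18 of 19 against ADEP+OVA and 36 of 37 for ovalbumin averaged over particles. Against OVA, Hsph1 kept its call in 11 of 19 and Hspa1b in 8 of 19, and against CDEP, Dnajb1 did in 8 of 19.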
